A study of Rattus norvegicus with 3 samples.

Results

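The genes described here build the class II antigen presentation pathway of the rat. They were chosen by name, not by their values, and are RT1-Da, RT1-Db1, RT1-Ba, RT1-Bb, RT1-DMa, RT1-DMb, Cd74 and Ciita. All 8 were found under their own names among the 34034 features of each library. The thymi came from Lewis rats, an inbred strain, at 8 weeks of age, with no treatment or genetic change stated, and 2 single-cell RNA libraries are described. One library held stromal cells that were digested from the tissue and sorted as CD45-negative, which depletes leukocytes, and the other held thymocytes. Each library is 1 sample, the labels do not say how many animals went into it, and so no test between conditions or cell types was possible. A Stereo-seq section of the same kind of thymus was not used here.

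Class II molecules present peptides to CD4+ T cells, and in the thymus they select developing thymocytes and delete self-reactive ones. RT1-Da and RT1-Db1 encode the alpha and beta chain of RT1-D, the rat counterpart of HLA-DR, and RT1-Ba and RT1-Bb encode those of RT1-B, the counterpart of HLA-DQ. Cd74 encodes the invariant chain, which fills the groove of new class II molecules and guides them to endosomes. RT1-DMa and RT1-DMb encode the DM heterodimer, which exchanges the remaining invariant chain fragment for a peptide. Ciita encodes the transactivator that is recruited to class II promoters by factors bound at their X and Y boxes.

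Promoter sequences of RefSeq (GRCr8) covered 6 of the 8 genes, with 250 bases before and 50 bases after the annotated start. They were searched on both strands for 1 form of each box, G, any 2 bases, AC, any base and then GATG for X, and GATTGG for Y, letters chosen after these promoters had been read. The windows below are shown because the same pair of motifs, or for RT1-Ba the Y motif alone, lies upstream of genes whose levels are then compared. Each runs 5′ to 3′ on the strand of its gene, and capitals mark the motifs, X first where there is one.
RT1-Da: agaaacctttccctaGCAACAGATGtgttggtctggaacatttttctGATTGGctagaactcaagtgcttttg
RT1-Db1: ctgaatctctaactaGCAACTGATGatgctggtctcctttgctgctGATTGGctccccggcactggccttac
RT1-Ba: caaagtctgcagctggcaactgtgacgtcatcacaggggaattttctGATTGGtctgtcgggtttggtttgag
RT1-Bb: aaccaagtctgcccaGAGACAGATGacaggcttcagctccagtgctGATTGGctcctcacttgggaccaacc
RT1-DMa: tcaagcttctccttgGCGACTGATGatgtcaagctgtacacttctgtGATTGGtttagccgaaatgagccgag

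These windows lie on chromosome 20 in GRCr8. That of RT1-Da is chr20:4515318-4515390 on the plus strand, with X 82 and Y 50 bases before the start. The window of RT1-Db1 is chr20:4560218-4560289 on the minus strand, with X at 112 and Y at 81 bases. That of RT1-Bb is chr20:4604155-4604226 on the minus strand, with the motifs at 93 and 62 bases, and that of RT1-DMa is chr20:4712375-4712447 on the minus strand, with the motifs at 97 and 65 bases. In these 4 promoters the starts of X and Y were 31 or 32 bases apart. The window of RT1-Ba is chr20:4576966-4577038 on the plus strand and holds the Y motif 44 bases before the start, without the X letters searched. Of 33469 promoters of the same length, 2.84% held the X motif, 14.8% the Y motif and 10 held both in the same orientation at 20 to 50 bases. Those 10 are RT1-Db2 and RT1-DOb, the 4 named above, 2 entries of Asb15, and Hsd17b7 and Ttc29, which are not class II genes. The promoter of Cd74 held neither motif, and those of RT1-DMb and Ciita were not analysed here.

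The stromal library held 16160 barcodes, of which the authors annotated 13226, with 131624350 UMIs and a median of 9087.5 per cell. In the thymocyte library 8546 of 8574 barcodes were annotated, with 64440495 UMIs and a median of 3994. The libraries shared 38 barcodes, 28 of them annotated in both. Cell types are the authors' labels, and since labels rest on the RNA of the same cells, differences between labels are descriptions. Levels are counts per 1000000 UMIs of a label (CPM) from summed UMIs, with 95% exact Poisson intervals, which cover counting error only. Labels given below have at least 20 cells. The epithelial marker list summed to between 4376 CPM in mTEC2 and 9701 CPM in mTEC1 among the 5 main epithelial labels, and Psmb11, the thymoproteasome gene of cortical epithelium, was at 0 in mTEC2.

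In the stroma all 8 genes were at their highest in epithelial labels, and the label mTEC2 held the highest level of the 4 classical chain genes, Cd74 and Ciita. RT1-Da, the RT1-D alpha chain, was at 6720 CPM (6550 to 6894) in mTEC2, at 2153 CPM in mTEC-prol, 1201 CPM in cTEC, 1128 CPM in early Pr and 871 CPM in mTEC1. RT1-Db1, its beta chain, was at 6924 CPM (6750 to 7100) in mTEC2 and at 2633, 1574, 1619 and 1373 CPM in those labels. The partner chains thus shared the order of the labels but for cTEC and early Pr, whose RT1-Db1 intervals overlap. RT1-Ba was at 5088 CPM in mTEC2, 1886 CPM in mTEC-prol, 1180 CPM in cTEC, 1046 CPM in early Pr and 949 CPM in mTEC1. RT1-Bb was at 4419, 1591, 803, 810 and 655 CPM in the same labels. For RT1-Bb the values in cTEC and early Pr did not differ beyond their counting error.

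**Figure D1:**
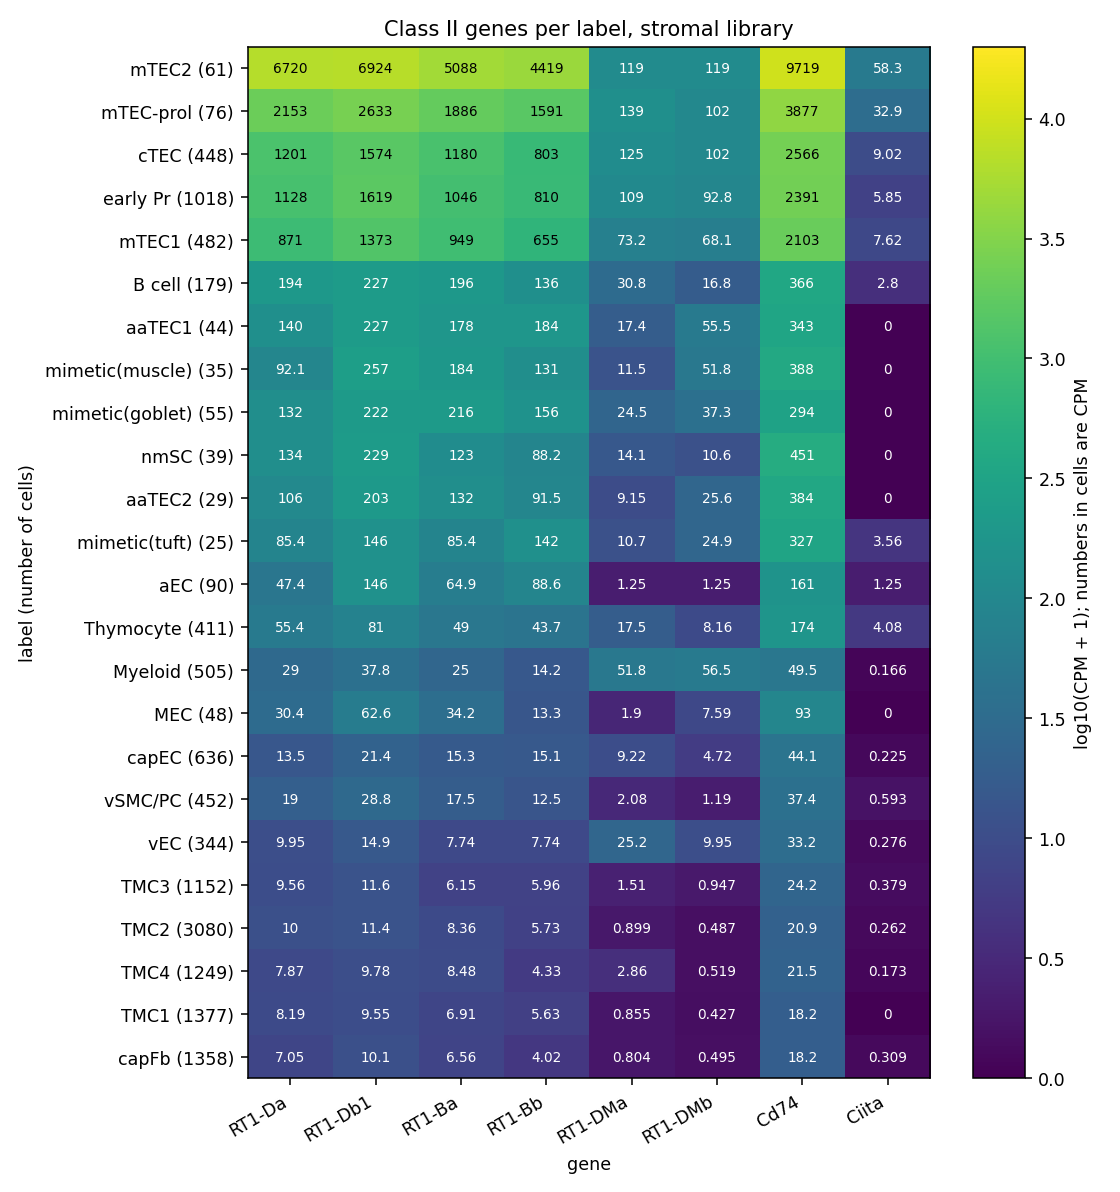
Levels of the 8 class II pathway genes (columns) in stromal labels of at least 20 cells (rows), with colour for log10(CPM + 1) and the CPM printed in each cell. The 5 main epithelial labels hold the high values, with mTEC2 at 6720 CPM of RT1-Da and 9719 CPM of Cd74.

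Cd74 had 74434 UMIs over the stromal library. It stood at 9719 CPM (9514 to 9928) in mTEC2, 3877 CPM in mTEC-prol, 2566 CPM in cTEC, 2391 CPM in early Pr and 2103 CPM in mTEC1. The order of these labels is that of RT1-Da. Ciita was at 58.3 CPM (43.4 to 76.6, from 51 UMIs) in mTEC2, at 32.9 CPM in mTEC-prol, 9.02 CPM in cTEC, 7.62 CPM in mTEC1 and 5.85 CPM in early Pr. Ciita had 301 UMIs over the library, with a UMI in 36.1% of mTEC2 cells and 7.81% of cTEC.

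The DM genes spanned a narrower range of levels over these labels. RT1-DMa was at 119 CPM (97.1 to 144, from 104 UMIs) in mTEC2, against 139 CPM (120 to 160) in mTEC-prol, 125 CPM (115 to 135) in cTEC, 109 CPM in early Pr and 73.2 CPM in mTEC1. The intervals of mTEC2, mTEC-prol and cTEC overlap, so these labels were not ordered beyond counting error. RT1-DMb was at 119 CPM in mTEC2, 102 CPM in both mTEC-prol and cTEC, 92.8 CPM in early Pr and 68.1 CPM in mTEC1. Put as a share of the summed UMIs of RT1-DMa and Cd74, RT1-DMa made up 1.21% in mTEC2, 3.37% in mTEC1, 3.46% in mTEC-prol and 4.63% in cTEC.

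The contrast of mTEC2 with mTEC1 was larger for the chain genes, Cd74 and Ciita than for the DM genes. A gene was called when the labels differed at least 2-fold on at least 20 UMIs over both. Of the 8 genes, 6 were called higher in mTEC2, where 15.6% of 13597 genes were. RT1-Da was 7.71-fold higher (7.44 to 8.00), Ciita 7.65-fold (5.17 to 11.3), RT1-Bb 6.74-fold, RT1-Ba 5.36-fold, RT1-Db1 5.04-fold and Cd74 4.62-fold. RT1-DMa at 1.62-fold (1.31 to 2.01) and RT1-DMb at 1.75-fold (1.41 to 2.16) were the members not called. The median was 5.20-fold over the 8 genes and 0.908-fold over all genes. Of the authors' clusters, TEC-d held 57 of the 61 mTEC2 and 232 of the 482 mTEC1 cells, while 176 mTEC1 cells were in TEC-b. Within TEC-d all 8 genes were at least 2-fold higher in mTEC2, RT1-DMa at 2.86-fold (2.23 to 3.66), RT1-DMb at 2.74-fold (2.14 to 3.50) and RT1-Da at 12-fold (11.4 to 12.6). The contrast was smaller in cells with fewer than 3 UMIs of myeloid, B or thymocyte markers, which left 22 of 61 mTEC2 and 317 of 482 mTEC1 cells. There RT1-Da was 4.59-fold and Cd74 2.89-fold higher in mTEC2. RT1-DMa at 0.588-fold and RT1-DMb at 0.741-fold rested on 10 and 11 UMIs in mTEC2, so their direction is uncertain. Most mTEC2 B list UMIs were of Ebf1, and with a B list without it, which left 34 and 467 cells, RT1-Da was 5.22-fold, Cd74 2.91-fold, RT1-DMa 1.21-fold and RT1-DMb 1.08-fold higher. In all mTEC2 cells the myeloid list stood at 327 CPM, of which Lyz2 gave 241 CPM, with Flt3, Xcr1, Clec9a and Itgax at 0. The B list stood at 290 CPM there, of which Ebf1 gave 259 CPM, and in mTEC1 these lists were at 12.3 and 204 CPM. The thymocyte list stood at 150 CPM in mTEC2, with Rag1 at 0, and at 34.7 CPM in mTEC1, and Ptprc, the CD45 gene, at 40 and 5.60 CPM. Their part in the contrast was not tested beyond these filters.

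The level in mTEC2 was compared with the next highest label as well, calling a gene when its highest label was at least 3-fold above the next among the 18 stromal labels of at least 50 cells. RT1-Da was the 1 member called, and 10.5% of 14967 genes were. The next label was mTEC-prol for the chain genes, Cd74 and Ciita, with mTEC2 higher by 2.78-fold for RT1-Bb, 2.70-fold for RT1-Ba, 2.63-fold for RT1-Db1, 2.51-fold for Cd74 and 1.77-fold for Ciita. For RT1-DMb mTEC2 was 1.17-fold above the next label, and RT1-DMa was 1.11-fold higher in mTEC-prol than in cTEC. In cells with fewer than 3 marker UMIs of other types RT1-Da was 2.82-fold (2.59 to 3.07) above mTEC-prol, and 2.53-fold with the B list without Ebf1, so the call was lost.

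Between mTEC1 and cTEC none of the 8 genes was called in either direction, where 9.9% of genes were higher and 5.5% lower. Folds of mTEC1 over cTEC ran from 0.587 for RT1-DMa (0.521 to 0.662) to 0.872 for RT1-Db1 (0.846 to 0.899), with a median of 0.810. For 7 of the 8 genes the interval lay below 1, the exception being Ciita at 0.844 (0.563 to 1.27). The labels were spread differently over the clusters, with 311 of 448 cTEC and 176 of 482 mTEC1 cells in TEC-b. Within TEC-b the folds ran from 0.824 for Ciita to 1.04 for RT1-Ba, with RT1-Da at 1.03 (0.979 to 1.07) and RT1-Db1 at 1.01 (0.972 to 1.06), and each of the 8 intervals included 1. The lower levels of mTEC1 were thus not seen within that cluster. Within TEC-c, with 54 and 55 cells, the folds ran from 0.514 for Ciita, from 2 and 5 UMIs, to 0.968. There the interval lay below 1 for Cd74 at 0.798 (0.740 to 0.861) and RT1-Db1 at 0.873 (0.795 to 0.959). It did so for RT1-Ba too, at 0.885 (0.792 to 0.990), while the other intervals included 1. Set against the pooled fibroblast labels, cTEC was higher for all 8 genes, where 16.8% of genes were, by 39.6-fold for Ciita to 187-fold for RT1-DMb.

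Within labels the cells spread widely. The 8 genes together made up a median of 27848 CPM per mTEC2 cell, with the 10th percentile at 1040 and the 90th at 65898 CPM. In cTEC the median was 7221 CPM, between 2195 and 14010 CPM. In early Pr it was 6974 CPM, in mTEC-prol 6175 CPM and in mTEC1 4664 CPM. The mTEC2 10th percentile thus lay below the median of each of the other main epithelial labels. The 4 mTEC2 cells with most member UMIs, which are the top 5% of the label, held 26.9% of its member UMIs.

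**Figure D2:**
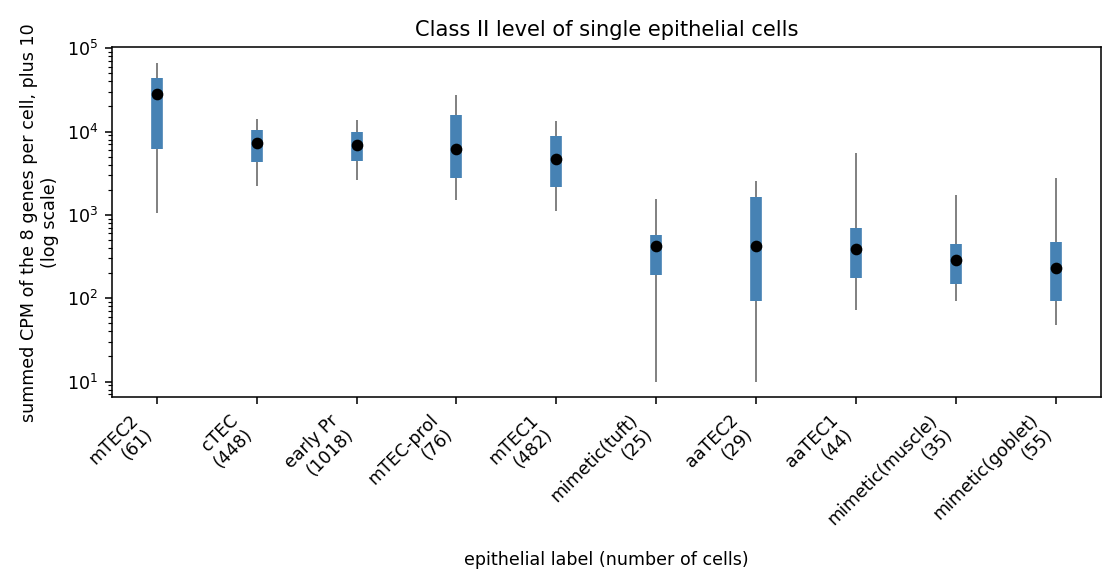
Summed CPM of the 8 genes per cell, plus 10, on a log axis for the epithelial labels, where the dot is the median over cells, the thick bar the 25th to 75th and the thin bar the 10th to 90th percentile. The mTEC2 median of 27848 CPM lies above the 90th percentile of cTEC at 14010 CPM, while the mTEC2 10th percentile is at 1040 CPM.

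Cells that held at least 5 of the 8 genes were 96.0% of early Pr, 86.6% of cTEC, 85.5% of mTEC-prol, 85.2% of mTEC2 and 77.8% of mTEC1. Median depth in these labels ran from 10535 UMIs in cTEC to 16804.5 UMIs in mTEC-prol. Thinned to 1000 UMIs per cell, the shares were 66.7% in mTEC2, 34.2% in mTEC-prol, 31.2% in cTEC, 27.0% in early Pr and 18.9% in mTEC1. At equal depth mTEC2 thus had the highest share of these labels.

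Aire, the regulator that lets medullary epithelium express tissue-restricted genes, had a UMI in 40 of 61 mTEC2 and 24 of 76 mTEC-prol cells. In mTEC-prol, RT1-Da was at 4415 CPM in cells with an Aire UMI and at 841 CPM in the others. In the same cells Cd74 was at 6743 against 2215 CPM, and Ciita at 79.7 against 5.78 CPM. In mTEC2, RT1-Da was at 7492 against 3945 CPM, Cd74 at 10396 against 7285 CPM, RT1-DMa at 139 against 47.3 CPM and Ciita at 68.6 against 21.0 CPM. Cells with an Aire UMI had higher levels of all 8 genes in both labels. They were also deeper, with median UMIs of 17096 against 7652 in mTEC2 and 24196.5 against 14051.5 in mTEC-prol, and the part of depth in this split was not tested.

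Labels of epithelial cells that carry programmes of other tissues, such as mimetic(goblet) and mimetic(muscle), stood low in the pathway, as did aaTEC1 and aaTEC2. The label aaTEC2 held the fibroblast list at 23868 CPM and the epithelial list at 1838 CPM, so its cells did not carry epithelial markers alone. Cd74 was at 294 CPM in mimetic(goblet), 388 CPM in mimetic(muscle), 327 CPM in mimetic(tuft), 343 CPM in aaTEC1 and 384 CPM in aaTEC2. Few cells made up these sums, since 3 of the 55 mimetic(goblet) cells held 58.0% of the member UMIs of the label and 3 of the 44 aaTEC1 cells held 51.9%. The median cell was at 223 CPM for the 8 genes together in mimetic(goblet) and at 378 CPM in aaTEC1, far below the 4664 CPM of mTEC1. Ciita was at 0 in mimetic(goblet), mimetic(muscle), aaTEC1 and aaTEC2, and had 1 UMI in mimetic(tuft). These labels are small, so a count of 0 in any of them bounds its level only loosely.

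Most mimetic(goblet), aaTEC1 and mimetic(muscle) cells fell into 1 cluster of the authors, TEC-e, with 49, 36 and 30 of its 133 cells. Of the 25 mimetic(tuft) and 29 aaTEC2 cells, only 6 and 3 were in TEC-e. The median depth of TEC-e, 15277 UMIs, was above the 10616.5 of TEC-b, the cluster of 1388 cells that holds most cTEC and early Pr. In TEC-b, RT1-Da was found in 97.1% of cells, RT1-Bb in 97.4%, RT1-DMb in 63.8% and Cd74 in 99.9%. In TEC-e the shares were 12% for RT1-Da, 42.9% for RT1-Db1, 44.4% for RT1-Ba, 64.7% (55.9 to 72.7) for RT1-Bb, 8.27% for RT1-DMa, 47.4% (38.7 to 56.2) for RT1-DMb and 30.1% (22.4 to 38.6) for Cd74. The distance between the clusters thus differed by gene, and was far wider for Cd74 and RT1-Da than for RT1-DMb.

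**Figure D3:**
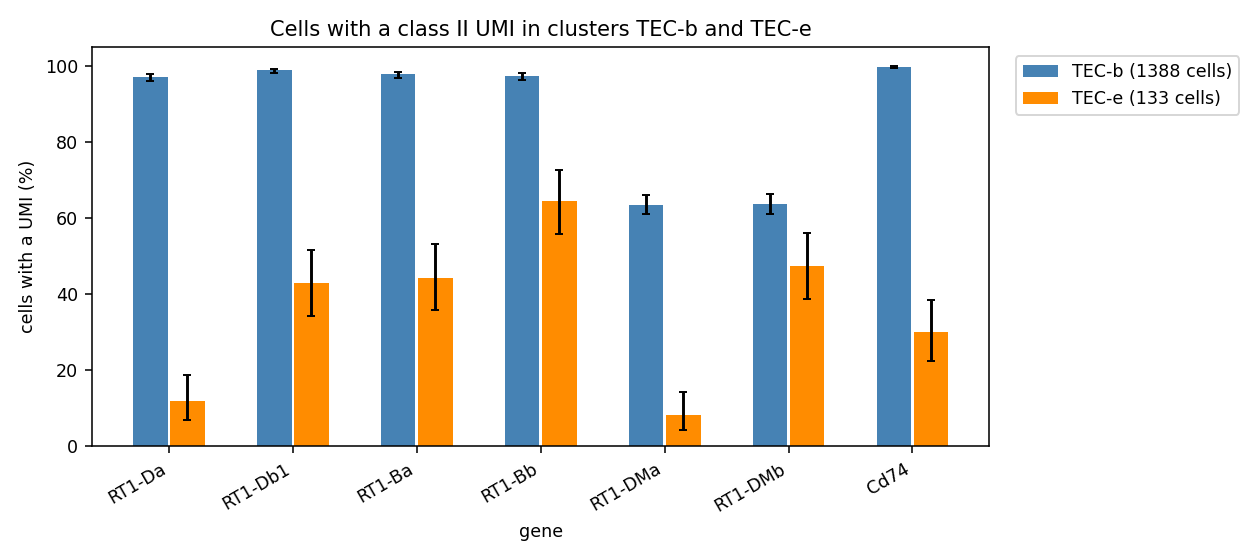
Percent of cells with a UMI of each of 7 genes in the authors' clusters TEC-b (1388 cells) and TEC-e (133 cells), as bars from 0 with exact 95% binomial intervals. Cd74 is found in 99.9% of TEC-b and 30.1% of TEC-e cells, while RT1-Bb is found in 64.7% of TEC-e cells.

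The levels gave the same picture. In TEC-e, RT1-Bb was at 91.8 CPM, Cd74 at 87.6 CPM, RT1-Db1 at 80.9 CPM, RT1-Ba at 63.3 CPM, RT1-DMb at 38.5 CPM, RT1-Da at 25.2 CPM and RT1-DMa at 8.57 CPM. In TEC-b, Cd74 was at 2750 CPM, RT1-Bb at 920 CPM, RT1-DMb at 107 CPM and RT1-DMa at 130 CPM. Ciita was at 0 CPM (0 to 1.76) in TEC-e and at 7.68 CPM (6.35 to 9.21) in TEC-b. RT1-Bb made up 51.2% (46.0 to 56.3) of the UMIs of RT1-Bb and Cd74 in TEC-e, against 18.5% to 28% in the other 4 epithelial clusters. RT1-DMb made up 81.8% (72.8 to 88.9) of the DM UMIs there, against 39.8% to 51.1%. The makeup of the pathway RNA in TEC-e thus lay outside the range of those clusters by more than counting error. At 1000 UMIs per cell the shares of TEC-e cells with a UMI were at most 7.52%, too few for an order. Within TEC-e, RT1-Bb and Cd74 were at 93.0 and 67.1 CPM in the goblet cells, at 98.4 and 84.3 CPM in the aaTEC1 cells and at 109 and 173 CPM in the muscle cells, so that their ratio differed among its labels.

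Outside the epithelium the stromal levels were below those of the main epithelial labels. Summed over the class II genes they were 1171 CPM in B cell, 1051 CPM in nmSC, 512 CPM in aEC and 433 CPM in Thymocyte, against 6100 CPM in mTEC1. Cells with a UMI of Epcam, a marker of epithelium, held 68.3%, 83.6%, 89.0% and 5.92% of the member UMIs of those non-epithelial labels. The top 5% of cells of each label held 53.3%, 64.8%, 89.5% and 80.9% of them, and in Thymocyte 1 cell held 345 of 743. Fibroblast labels, which are not known as class II cells, held Cd74 at 18.2 to 24.2 CPM and in 14.5% to 17.4% of cells. They serve here as the comparison for a gene that a cell type should lack, and free RNA itself was not measured. Cd74 was found in 15.6% of capEC cells, 18.0% of vEC cells and 16.4% of Myeloid cells, at or near the share of the fibroblast labels, with median depths of 5805.5, 9585.5 and 9510 UMIs against 8143 to 11378.5 in the fibroblast labels. RT1-DMa was in 0.747% to 2.56% of cells of the fibroblast labels, and in 4.56% of capEC, 15.7% of vEC and 22.2% of Myeloid cells. In share of cells, vEC and Myeloid thus stood well above the fibroblast labels for RT1-DMa and near them for Cd74. In level over all cells, Cd74 was above those labels in Myeloid at 49.5 CPM, capEC at 44.1 CPM and vEC at 33.2 CPM. In cells without an Epcam UMI, Cd74 was at 12.4 CPM in Myeloid, 22.0 CPM in vEC and 29.9 CPM in capEC. The fibroblast labels were then at 17.2 to 23.1 CPM, so that only capEC stayed above them and Myeloid was below.

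In Myeloid, RT1-DMa was at 51.8 CPM, RT1-DMb at 56.5 CPM and Cd74 at 49.5 CPM. Cells with an Epcam UMI, a marker of epithelium, were 32 of these 505 cells and held 52.2% of the member UMIs. In the other cells Cd74 was at 12.4 CPM, RT1-DMa at 50.0 CPM and RT1-DMb at 55.9 CPM. The DM genes were thus at nearly the same level without the cells that carried Epcam, and Cd74 was not. Of 112 Myeloid cells with an RT1-DMa UMI, 80 also had an RT1-DMb UMI, which is 71.4%, against 24.2% of the cells without one. Cd74 was found in 24.1% of those 112 cells and in 14.2% of the others. The label held Lyz2 at 4808 CPM, while C1qa, C1qb, Clec9a and Siglech were at 0, and it comes from a library depleted of CD45+ cells.

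RT1-DMa made up 51.1% (47.1 to 55.2) of the UMIs of RT1-DMa and Cd74 in Myeloid and 43.1% (36.3 to 50.1) in vEC. The share was 17.3% (12.7 to 22.7) in capEC and 11.7% (8.19 to 16.0) in TMC4, against 4.12% to 5.88% in the other fibroblast labels, a range that includes the 4.63% of cTEC.

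**Figure D4:**
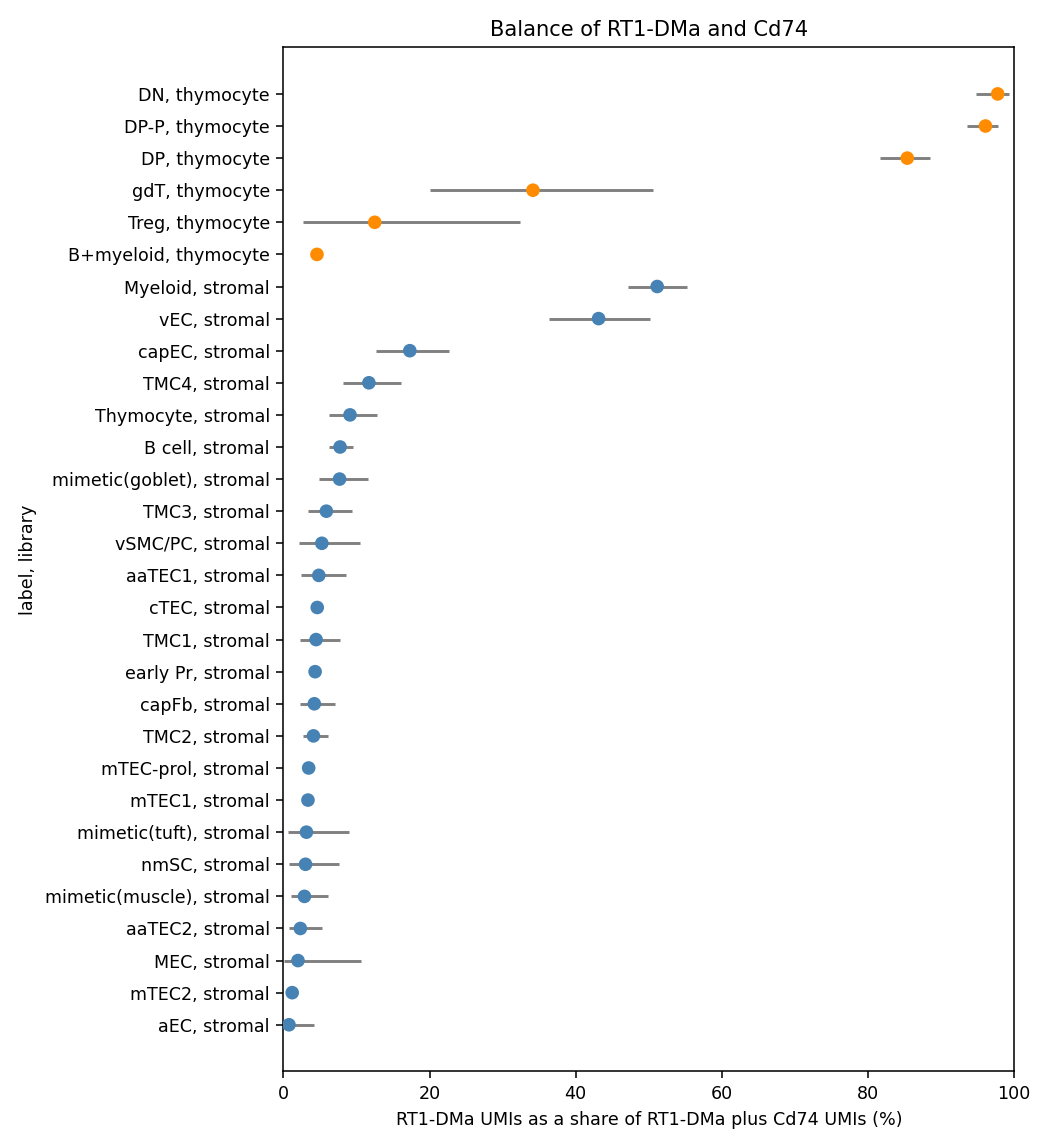
RT1-DMa as percent of the UMIs of RT1-DMa and Cd74 together in each label, with exact 95% binomial intervals, for stromal (blue) and thymocyte (orange) labels. Epithelial labels lie at 1.21% to 4.63% for the 4 labels named in the text, Myeloid and vEC at 51.1% and 43.1%, and DN, DP and DP-P at 85.4% or more.

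The label vEC was compared with capEC, which like it carried the endothelial list (2507 and 3383 CPM). RT1-DMa was at 25.2 CPM in vEC and 9.22 CPM in capEC, 2.73-fold higher (1.89 to 3.95, from 91 and 41 UMIs). RT1-DMb was at 9.95 and 4.72 CPM, 2.11-fold higher (1.23 to 3.61, from 36 and 21 UMIs). The 2 DM genes were called higher in vEC, where 4.74% of genes were, and no member was called lower, where 6.35% were. Cd74 at 0.753-fold, RT1-Da at 0.738-fold, RT1-Ba at 0.506-fold and RT1-Bb at 0.514-fold ran the other way. Cells with an Epcam UMI held 30.7% of the member UMIs of vEC and 39.0% of those of capEC. In the other cells RT1-DMa was at 22.3 CPM in vEC and 7.83 CPM in capEC, and Cd74 at 22.0 and 29.9 CPM. When cells with 3 marker UMIs of other types were left out, 41 vEC and 149 capEC cells were left, too few UMIs for a call, with RT1-DMa 6.28-fold and RT1-DMb 1.88-fold higher. With a B list without Ebf1 the filter left 332 and 631 cells, and both calls stood at 2.49-fold and 2.01-fold. At 1000 UMIs per cell RT1-DMa was 5.50-fold and RT1-DMb 3.05-fold higher, on fewer UMIs than a call needs, so that the count of called members went from 2 to 0.

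TMC4, 1 of the 5 fibroblast labels, had RT1-DMa at 2.86 CPM against 0.964 CPM in the others pooled, 2.96-fold higher (1.95 to 4.50, from 33 and 65 UMIs), where 12.7% of genes were called higher. At 1000 UMIs per cell it was 2.02-fold higher, on fewer UMIs than a call needs. The other genes of TMC4 were between 0.730-fold for Ciita, from 2 UMIs, and 1.16-fold for RT1-Ba, and none was called lower, where 13.2% of genes were.

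The stromal label B cell had Cd74 at 366 CPM, RT1-Db1 at 227 CPM, RT1-Ba at 196 CPM, RT1-Da at 194 CPM and RT1-Bb at 136 CPM. Of its 179 cells, 31 had an Epcam UMI and held 68.3% of the member UMIs, and Cd74 was at 187 CPM in the others. Ebf1 gave 3343 of the 4421 CPM of its B list, and Ebf1 was also at 849 to 2310 CPM in the fibroblast labels. The fibroblast list stood at 5386 CPM in this label, so that its cells did not carry B markers alone. That list was also at 2153 CPM in Myeloid, 2605 CPM in mTEC2 and 9490 CPM in Thymocyte, but at 237 CPM in mTEC-prol. Relative to B cell, Myeloid was lower for 5 genes, where 37.3% of genes were, with folds from 0.105 for RT1-Bb to 0.166 for RT1-Db1. RT1-DMb was 3.36-fold higher in Myeloid (2.48 to 4.55), where 10.4% were. Without cells with an Epcam UMI, RT1-DMb was 10.5-fold and RT1-DMa 8.06-fold higher in Myeloid, in place of the 1.68-fold of RT1-DMa in all cells. With the marker filter and a B list without Ebf1, RT1-DMb was 1.92-fold higher and RT1-DMa was at 0.675-fold.

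In the thymocyte library all 8 genes were highest in 1 label, B+myeloid, of 170 cells. It held RT1-Da at 4481 CPM, RT1-Db1 at 5266 CPM, RT1-Ba at 2867 CPM, RT1-Bb at 2934 CPM, RT1-DMa at 312 CPM, RT1-DMb at 279 CPM, Cd74 at 6481 CPM and Ciita at 74.0 CPM. The 9 of its cells with most member UMIs, the top 5%, held 45.4% of them, and 18.2% of its cells had none. For all 8 genes this label was at least 3-fold above the next of 17, where 15% of 10690 genes had such a leading label. The ratio ran from 15.7 for RT1-DMa, with DP-P next, to 938 for RT1-Da, with gdT next. Against DP, the double-positive thymocytes, the label was higher for 8 of 8 genes, where 26.2% of genes were, from 15.8-fold for RT1-DMa to 3685-fold for RT1-Da. All 12 markers of the myeloid list were detected in it. The share of RT1-DMa in the UMIs of RT1-DMa and Cd74 was 4.60%, close to the 4.63% of cTEC in the stromal library, though levels of the libraries were not compared. The share of B+myeloid is an average over the sets of cells given below, which differed in their balance of these genes. RT1-Ba made up 49.4% (48.6 to 50.3) of the RT1-B chain UMIs here and 59.5% in cTEC.

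**Figure D5:**
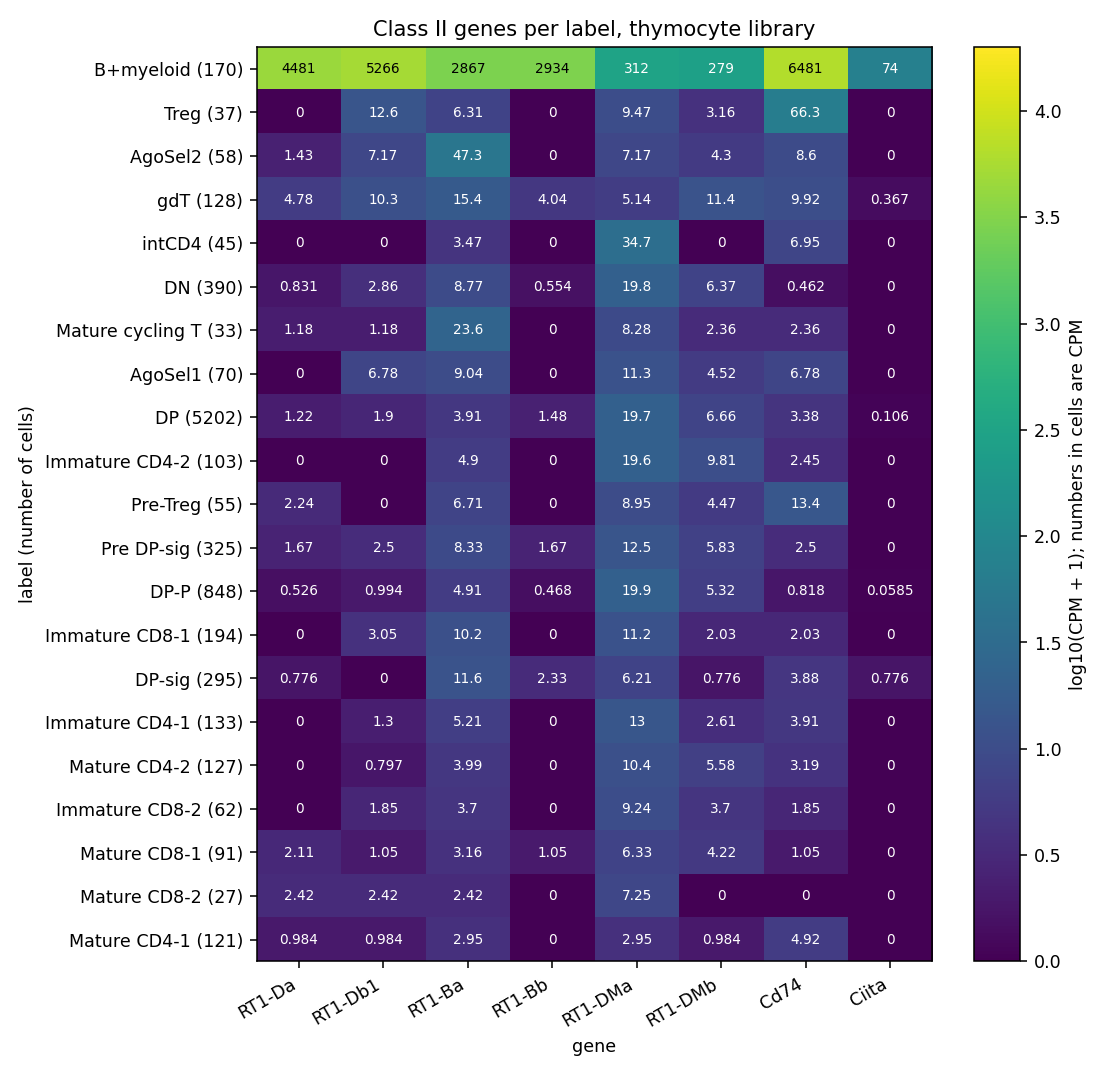
Levels of the 8 class II pathway genes (columns) in labels of at least 20 cells of the thymocyte library (rows), with colour for log10(CPM + 1) and the CPM printed in each cell. B+myeloid reaches 6481 CPM of Cd74, while DN, DP and DP-P are at 19.7 to 19.9 CPM of RT1-DMa and 0.462 to 3.38 CPM of Cd74.

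The label mixes kinds of cells, and sets of 3 or more UMIs of chosen markers split it. The 19 cells with Flt3, Xcr1 or Clec9a UMIs, markers of dendritic cells, had RT1-Da at 12091 CPM, Cd74 at 16435 CPM, RT1-DMa at 576 CPM and Ciita at 214 CPM. The 35 cells with UMIs of Cd79a, Cd79b, Ms4a1 or Pax5, markers of B cells, had RT1-Da at 3239 CPM, Cd74 at 7094 CPM, RT1-DMa at 245 CPM and Ciita at 79.6 CPM. The 70 cells with C1qa or C1qb UMIs, markers of macrophages, had RT1-Da at 2261 CPM, Cd74 at 2160 CPM, RT1-DMa at 315 CPM and Ciita at 11.1 CPM. The sets were not ordered alike for all genes, since the macrophage marker set was below the B set in Cd74 and above it in RT1-DMa. In it RT1-DMa was found in 70.0% of cells and Cd74 in 38.6%, against 71.4% and 100% in the B set. Median UMIs were 22500, 14247 and 5811.5 in the 3 sets, so the sets also differ in depth. A further 38 cells were in no set and 8 were in more than 1.

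The early thymocyte labels held RT1-DMa at like levels. RT1-DMa was at 19.8 CPM (17.3 to 22.7) in DN, the double-negative stage, 19.7 CPM (17.8 to 21.8) in DP and 19.9 CPM (17.9 to 22.2) in DP-P. These levels did not differ beyond counting error. RT1-DMb was at 6.37, 6.66 and 5.32 CPM in these labels. Cd74 was at 0.462, 3.38 and 0.818 CPM and in 1.28%, 1.10% and 1.65% of cells. RT1-DMa was in 37.9% of DN, 6.36% of DP and 30.5% of DP-P cells, at median depths of 23190, 3205.5 and 15439 UMIs, and at 1000 UMIs per cell in 3.33%, 1.53% and 2.59%. In the UMIs of RT1-DMa and Cd74, RT1-DMa made up 97.7% (94.8 to 99.3) in DN, 96.1% in DP-P and 85.4% (81.7 to 88.5) in DP, against the 4.60% of B+myeloid. Free RNA was not measured in this library.

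The label intCD4 had RT1-DMa at 34.7 CPM (16.7 to 63.9) from 10 UMIs, an interval that includes the level of DP. The pooled mature CD4 and CD8 labels were lower than DP in RT1-DMa, at 6.88 against 19.7 CPM (0.349-fold, 0.233 to 0.523), and in RT1-DMb, at 3.30 against 6.66 CPM (0.496-fold, 0.274 to 0.897). RT1-Bb was called lower too, at 0.186-fold (0.0253 to 1.37) from 1 UMI against 28, an interval that includes 1. Those are 3 of the 8 genes, where 21% of genes were lower, and no member was called higher, where 11.2% were. At 1000 UMIs per cell RT1-Bb turned to 1.76-fold, and RT1-Ba at 2.12-fold and Cd74 at 2.45-fold were called higher, while RT1-DMa stayed lower at 0.159-fold. The pooled labels AgoSel1, AgoSel2, Pre-Treg and Treg were lower than DP in RT1-DMa at 0.453-fold (0.279 to 0.736), where 17.7% of genes were called lower.

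In thymocytes the makeup of the RT1-B chain UMIs also lay away from that of B+myeloid. RT1-Ba was at 8.77 CPM in DN against 3.91 CPM in DP, 2.24-fold higher (1.65 to 3.04), where 18.2% of genes were called higher. RT1-Bb at 0.374-fold and Cd74 at 0.136-fold were called lower in DN, where 28.7% were, from 6 and 5 UMIs in DN. RT1-Ba made up 94.1% (87.5 to 97.8) of the RT1-B chain UMIs in DN, 91.3% in DP-P, 79.2% in gdT and 72.5% in DP. In AgoSel2 RT1-Ba was at 47.3 CPM (32.6 to 66.5), with 33 UMIs against 0 of RT1-Bb.

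The labels AgoSel1, AgoSel2, Pre-Treg and Treg, pooled, were higher than DP in RT1-Ba (5.64-fold, 3.86 to 8.24), Cd74 (5.59-fold, 3.72 to 8.41) and RT1-Db1 (3.31-fold, 1.72 to 6.37), where 13.5% of genes were called higher. Of the 42 RT1-Ba UMIs behind this, 33 lay in AgoSel2. Of the 36 Cd74 UMIs, 21 lay in 6 of the 37 Treg cells, a label with Cd74 at 66.3 CPM (41.0 to 101). In Treg the B marker Cd79a was at 445 CPM, while Ms4a1 and Ebf1 were at 0. Leaving out cells with 3 or more marker UMIs of other types brought Cd74 to 2.90-fold and RT1-Ba to 6.99-fold.

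RT1-Db2, a second beta chain gene beside RT1-Db1, and the DO chain gene RT1-DOa, whose product restrains DM, are given for comparison. The related genes RT1-DOb and RT1-Ha were counted too. In the thymocyte library RT1-DOb was highest in B+myeloid at 31.4 CPM. RT1-Ha was highest in DP there at 33.5 CPM, with B+myeloid at 0.349-fold (0.239 to 0.510). RT1-Db2 was at 130 CPM in mTEC2 and 3.11 CPM in mTEC1, 41.9-fold higher (26.0 to 67.4), and RT1-DOa was at 45.7 and 9.79 CPM, 4.67-fold higher. RT1-Db2 made up 1.85% of the RT1-Db1 and RT1-Db2 UMIs in mTEC2, 33.3% in Myeloid, 55.7% in DN and 82.8% in DP-P. Reads of near-identical stretches of these genes cannot be told apart, so the low RT1-Db1 levels of thymocytes are uncertain.

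Other genes of the pathway came from 5 lists of regulators, antigen-processing enzymes, costimulators, turnover genes and class II receptors, of which 39 of 41 genes were in the files. In the stroma 9 of 37 had a highest label at least 3-fold above the next, beside the 10.5% of all genes. Cd83, which protects class II from turnover, was at 488 CPM in mTEC2 (3.79-fold above the next label), and Cd86, a costimulator, was at 86.8 CPM there (3.21-fold). Prss16, a thymus-specific serine protease of cortical epithelium, was at 207 CPM in cTEC, 11.8-fold above the next. Marchf8, a ubiquitin ligase, led in mimetic(goblet) at 381 CPM. Spi1 at 157 CPM and the cathepsin gene Ctsz at 379 CPM led in Myeloid, Irf4 at 90.7 CPM in B cell, and the receptors Cd4 at 578 CPM and Lag3 at 360 CPM in the cells labelled Thymocyte. By list the count was 2 of 16 regulators, 2 of 11 processing genes, 1 of 5 costimulators, 2 of 3 turnover genes and 2 of 2 receptors.

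In the thymocyte library 18 of 36 such genes were called, beside the 15% of all genes, and 17 of the 18 led in B+myeloid. These included 9 of 11 processing genes, 4 of 5 costimulators, 2 of 15 regulators and 2 of 3 turnover genes. Among them were the cathepsin genes Ctsh at 538 CPM, Ctsz at 1066 CPM and Ctsb at 754 CPM, and the thiol reductase gene Ifi30, also at 1066 CPM. Lgmn, the legumain gene, was at 541 CPM. Cd40 at 44.3 CPM, Cd86 at 188 CPM and Cd83 at 420 CPM were there with the ubiquitin ligase gene Marchf1 at 191 CPM, the transcription factor genes Spi1 at 152 CPM and Irf8 at 330 CPM, and RT1-DOa at 40.2 CPM. Cd4, the receptor of class II, led in DP at 1350 CPM, 3.43-fold above the next label.

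Genes were ranked by the correlation of their log2(CPM + 1) over labels with the mean of the 7 members other than Ciita. Over 18 stromal labels, which share 1 library, the 5 most alike of 13871 genes were Hecw1 (Pearson r = 0.976), Serpinb5 (0.970), Gpx2 (0.956), Krt7 (0.955) and Shtn1 (0.954). Of all genes, 0.865% were above 0.9, and the 8 members themselves ran from 0.885 for Ciita to 0.992. In both libraries every member but Ciita is part of that mean. This raises its r, so members cannot be set beside other genes. Over 17 thymocyte labels the 5 most alike were Gpnmb (0.990), Sulf2 (0.989), Lacc1 (0.989), Lrrk1 (0.989) and Atf3 (0.989), all highest in B+myeloid. There 2.67% of 10741 genes were above 0.9. In that library the members ran from 0.844 for RT1-DMa to 0.979, and the ranking rests on the 1 label.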

How the data were processed

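Barcodes of the stromal and thymocyte libraries hold whole UMI counts per gene, deposited by the authors and made with Cell Ranger 8.0.0 per the submitters' processing notes, which also name Seurat 5.3.0 and the build mRatBN7.2. The percent of mitochondrial UMIs per cell was deposited by the authors, with a maximum of 4.99% in the stromal and 54.2% in the thymocyte library, where 205 cells were above 10%. Deposited UMI totals per cell matched the counts exactly. No filter on cells was added, and no doublet caller was run.

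The label of a cell is the authors' projected label, or the initial cluster where there was none. UMIs were summed per label and given as CPM, shares have exact Clopper-Pearson intervals and folds log-normal counting intervals, all at 95%. A count of 0 was taken as up to 3 UMIs. With 1 sample per group no p-value was computed. PCR duplicates are removed by UMIs, and intervals cover counting error only. For thinning, each cell was reduced to 1000 UMIs, which left out 83 stromal and 51 thymocyte-library cells below that depth.

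The genes and lists were chosen with earlier results of these data known. The text names the 8 members, the 5 genes most like them, and markers of other cells. It also names pathway genes whose highest label leads at least 3-fold on at least 20 UMIs (at most 12 per library). RT1-Db2, RT1-DOa, RT1-DOb and RT1-Ha were added as related genes. Splits by Aire, Epcam and marker sets, and the motif letters, were chosen after seeing the data. Lewis reads were counted against a Brown Norway genome, class II chains are polymorphic, and the effect on their counts was not tested. The counting steps, tested on simulated data, ran in Python 3.11.15 with pandas 2.3.3, SciPy 1.17.1 and NumPy 2.4.6, and figures were drawn in matplotlib 3.10.9.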

Additional observations from a re-analysis of the deposited data

Results flagged for a closer look

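The stromal library holds 2934 barcodes without an annotation by the authors, with a median of 1220 UMIs and 8663291 UMIs in all, which the comparisons above do not use. In them the class II genes stood at 451 CPM for RT1-Da, 599 CPM for RT1-Db1, 418 CPM for RT1-Ba, 324 CPM for RT1-Bb and 961 CPM for Cd74. The annotated cells together were at 276, 373, 258, 196 and 566 CPM for these genes. RT1-DMa was at 25.4 CPM and RT1-DMb at 26.0 CPM in barcodes without an annotation, against 26.1 and 22.5 CPM in annotated cells. Ciita was at 7.96 CPM against 2.29 CPM. What these barcodes contain was not tested.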

How the results depend on the processing

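No paired analysis was possible because the stromal cells and the thymocytes are 1 library each. Of 854 values recomputed under alternatives, 678 were folds, of which 539 stayed within their interval and 138 moved beyond it. The remaining 1 was a called fold that reversed. Folds that were not called were never counted as reversed, even where they crossed 1, as RT1-DMa of mTEC2 over mTEC1 did. Of the values other than folds, mainly counts of members, 155 stayed within 1.5 times and 21 moved. Thinning to 1000 UMIs, which leaves few UMIs of low genes, moved that of vEC over capEC from 2 to 0, TMC4 from 1 to 0, DN over DP from 1 to 2 and the mature labels over DP from 0 to 2, where RT1-Bb reversed from 0.186-fold to 1.76-fold. Leaving out cells with 3 marker UMIs of another type moved vEC over capEC to 0 and the stromal count of leading genes from 1 to 0. It also brought RT1-DMa and RT1-DMb of mTEC2 over mTEC1 below 1, on the few UMIs given above. The same filter with a B list without Ebf1, chosen after seeing the data, took the leading count to 0 and Myeloid over B cell from 1 to 0. Leaving out non-epithelial cells with an Epcam UMI, also chosen after seeing the data, took the latter to 2. With initial clusters as labels the leading count was 0 and the mature count 1, and the contrasts of mTEC2, mTEC1, cTEC, vEC and the agonist-selected labels could not be formed. Of pairs of a stromal label and a member, 65 were at 100 CPM or more and 33 with initial clusters. Pairs with a UMI in at least 50% of cells numbered 45, 21 after thinning and 19 with initial clusters. Labels with a median of at least 5 members per cell numbered 5, 1 after thinning and 3 with initial clusters. In the thymocyte library 7 pairs reached 50% of cells, 1 after thinning, and 1 label had that median, 0 after thinning. Of the 5 genes most like the members, Spearman's rho shared 2 in the stroma and 0 in thymocytes, and a minimum of 1000 UMIs shared 0 in thymocytes. Comparisons within clusters, added after seeing the data, kept the counts within 1.5 times, at 8 for mTEC2 over mTEC1 and 0 for mTEC1 over cTEC. The cause of these moves was not tested. Leaving out cells above 10% mitochondrial UMIs was added after seeing the data. Depth limits Ciita, with 301 and 182 UMIs per library, and the chain genes of thymocytes.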
